A study of Homo sapiens with 22 samples.

Results

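EPCAM, FJX1, EMILIN2, SULF1 and CSPG5 were grouped here as genes related to the cell surface and the extracellular matrix. They were chosen by their own array signal, because it differed between heat shock and recovery. They are 5 of the 18852 genes with a named probe, and 6 of the 48803 probes on the array carry their symbols. RNA came from HEK293T, an established line of human embryonic kidney origin with the SV40 large T antigen. The cells had received siRNA directed at Satellite III (Sat III) RNA, or scrambled siRNA. Sat III transcripts are non-coding RNAs from pericentromeric repeats that heat shock factor 1 is known to switch on. Cells of each arm stayed at 37 °C (untreated), went through 1 h at 42 °C in a water bath (heat shock), or had 6 h of recovery after that heat shock. Each scrambled group held 4 arrays. With Sat III siRNA there were 3 arrays of untreated cells, 3 of heat-shocked and 4 of recovering cells. All groups had been transfected, and no untransfected cells were analysed here. The labels number the replicates and say nothing of separate cultures, so the spread behind each p-value may be technical. In bulk RNA, fewer expressing cells and less RNA per cell cannot be told apart.

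The members are assigned to different places: the plasma membrane, the matrix outside it and, for FJX1 by its Drosophila counterpart, the Golgi. EPCAM is an adhesion glycoprotein of epithelia that can be cut by ADAM17 and the presenilin complex, which frees a tail that binds FHL2 and beta-catenin. FJX1 is the human counterpart of a Golgi kinase that in Drosophila phosphorylates the cadherin domains of Fat and Dachsous, receptors of planar cell polarity. EMILIN2 is a secreted glycoprotein of elastic fibres and related matrix. SULF1 is a secreted sulfatase that removes sulfate groups from heparan sulfate and so alters the binding of growth factors. CSPG5, or neuroglycan C, is a transmembrane proteoglycan with chondroitin sulfate chains and an EGF-like domain, known mainly from brain. During heat shock, transcription of many genes is known to be reduced, and it resumes in recovery.

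The 250 bases before an annotated start are shown for FJX1, EMILIN2 and CSPG5. Only these 3 of the 5 members matched a RefSeq window on GRCh38.p14, and capitals mark each motif found. The FJX1 window is chr11:35618210-35618459 on the plus strand, with 70.4% G and C. The EMILIN2 window is chr18:2846756-2847005 on the plus strand, with 61.6% G and C. It lies inside the annotated gene, which begins at base 2846232, so the start it precedes is downstream of the gene's first base. The CSPG5 window is chr3:47578866-47579115 on the minus strand, before the downstream of 2 annotated starts, with 79.6% G and C.
FJX1: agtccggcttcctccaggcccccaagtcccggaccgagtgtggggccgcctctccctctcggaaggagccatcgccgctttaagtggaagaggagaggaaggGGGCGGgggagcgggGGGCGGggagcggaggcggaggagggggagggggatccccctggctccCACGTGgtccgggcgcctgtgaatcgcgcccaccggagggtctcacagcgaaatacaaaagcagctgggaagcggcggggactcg
EMILIN2: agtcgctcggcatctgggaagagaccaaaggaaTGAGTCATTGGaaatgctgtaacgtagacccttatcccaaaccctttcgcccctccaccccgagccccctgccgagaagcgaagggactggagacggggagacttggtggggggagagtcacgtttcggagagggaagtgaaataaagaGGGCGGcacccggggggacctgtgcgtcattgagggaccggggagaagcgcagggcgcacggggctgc
CSPG5: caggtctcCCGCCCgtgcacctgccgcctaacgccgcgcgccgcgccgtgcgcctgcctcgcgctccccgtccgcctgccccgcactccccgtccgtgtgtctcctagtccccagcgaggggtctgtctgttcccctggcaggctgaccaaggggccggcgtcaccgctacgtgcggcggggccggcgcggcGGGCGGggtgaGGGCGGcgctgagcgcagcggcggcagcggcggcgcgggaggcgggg

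Motifs were searched on both strands as exact letters, and all 35116 windows of 250 bases served as the background. FJX1 held 1 E-box, CACGTG, from base -85 before the start, a motif present in 6.34% of all windows. It also held 2 GC boxes, GGGCGG, a motif present in 42.6% of windows. EMILIN2 held 1 AP-1 site, TGAGTCA, from base -217, against 4.2% of windows, which shares 1 base with a CCAAT box on the other strand (32% of windows). It also held 1 GC box. The CSPG5 window held 3 GC boxes, and the window before the upstream start, with 50% G and C, held none of the motifs searched. Neither orientation of a minimal heat shock element core, GAANNTTC (5.78% of windows) or TTCNNGAA (6.62%), was present in these 4 windows. TATAAA (10.7%) and TGACGTCA (1.65%) were also absent. A match describes letters in a window and shows no binding.

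Before normalisation, median intensity lay between 48.9 and 64.6 per array, and 13176 to 14863 probes per array were detected, with a detection p-value under 0.01. The medians split by replicate number, at 56.5 to 64.6 in replicates 1 and 2 and 48.9 to 54.8 in replicates 3 and 4. Between arrays of different groups, deviations from group means correlated at a mean of 0.11 within a side of this split and -0.11 across it. The Sat III siRNA untreated and heat-shock groups lack replicate 3, so their arm comparisons are unbalanced over the split. The labels name no batch. HSPA6, a heat-inducible HSP70 gene, stood at 4.56 to 4.89 log2 units on untreated arrays, 12.49 to 13.74 on heat-shocked ones and 9.61 to 10.60 on recovering ones, in step with the treatment labels. Of 4 markers of the HEK293 lineage, the neurofilament genes NEFL and NEFM were detected on all 22 arrays, and NEFH and PAX2 did not reach 3 arrays. The summed intensity of the 4 ranged from 1081 to 1593 on scrambled untreated arrays, from 976 to 1437 on scrambled heat-shock arrays and from 837 to 1210 on scrambled recovery arrays. On Sat III siRNA arrays it ranged from 1470 to 1824 in untreated cells, from 1295 to 1752 after heat shock and from 933 to 1479 in recovery, and its part in the results was not tested. Detected on 3 or more arrays were 0 of 2 keratinocyte, 0 of 3 endothelial and 0 of 3 liver markers, 2 of 5 fibroblast markers (COL1A1 and LUM) and 1 of 3 blood markers (CD14). The authors' normalised table goes against the scanner table for 7 of 22 arrays: 6 of its columns, labelled replicate 4, had the probe order of another scanner array, and 1, labelled Sat III siRNA recovery replicate 3, matched none. The scanner table is used below. Every group holds a replicate 4 array, so all results rest in part on the 7 arrays. Only some results are also given on the 15 that match.

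FJX1 was the member that stood low at the end of heat shock and high in recovery, in both arms. Its probe, ILMN_1746465, was detected on all 22 arrays. Levels are log2 normalised intensities. On scrambled arrays FJX1 read 9.22, 9.26, 9.11 and 8.79 untreated, 8.07, 8.14, 8.12 and 8.00 after heat shock, and 9.68, 9.27, 9.45 and 9.43 in recovery. On Sat III siRNA arrays it read 9.29, 9.53 and 9.30 untreated, 8.23, 8.25 and 8.39 after heat shock, and 9.74, 9.79, 9.77 and 9.68 in recovery. The heat-shock arrays lay below all untreated and recovering arrays of their arm, with no overlap. Recovery arrays lay above untreated ones in both arms, though barely in the scrambled arm, where the lowest read 9.27 against a highest untreated 9.26. Heat shock minus untreated was -1.01 ± 0.10 (SE) with scrambled siRNA and -1.08 ± 0.11 with Sat III siRNA. Recovery minus heat shock was 1.37 ± 0.10, or 2.59-fold, and 1.45 ± 0.10, or 2.73-fold. These changes are what the genes were picked for, so they are given as a description with no test, here and for the other members.

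EMILIN2 was the member with the largest increase from untreated cells to recovery. Probe ILMN_1697268 was detected on all 22 arrays. With scrambled siRNA EMILIN2 read 7.11, 7.20, 6.92 and 7.04 untreated, 6.66, 6.80, 6.62 and 7.13 after heat shock, and 8.41, 8.03, 7.87 and 8.36 in recovery. On the Sat III siRNA arrays its values were 6.64, 6.46 and 6.62 untreated, 6.41, 6.33 and 6.49 after heat shock, and 7.73, 7.88, 8.00 and 8.16 in recovery. Recovery arrays stood above every other array of their arm, and untreated and heat-shocked arrays overlapped. Recovery minus untreated was 1.10 ± 0.12, or 2.14-fold, with scrambled siRNA and 1.37 ± 0.13, or 2.58-fold, with Sat III siRNA. Recovery minus heat shock was 1.37 ± 0.12 and 1.53 ± 0.13. By size of that change EMILIN2 and FJX1 ranked 34 and 33 of 10147 tested genes in the scrambled arm. SULF1, EPCAM and CSPG5 ranked 95, 280 and 395. The members were picked for this change, so nothing is read from the ranks.

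EPCAM shared the direction of EMILIN2 in recovery at a smaller size. Its probe ILMN_2160210 was detected on all 22 arrays. With scrambled siRNA EPCAM read 6.51, 6.39, 6.49 and 6.24 untreated, 6.33, 6.19, 6.43 and 6.22 after heat shock, and 7.10, 6.97, 7.03 and 6.89 in recovery. Arrays of the Sat III arm gave 6.53, 6.46 and 6.74 untreated, 6.69, 6.62 and 6.43 after heat shock, and 7.39, 7.12, 7.10 and 7.18 in recovery. Recovery arrays again lay above all others of their arm, while heat-shocked and untreated arrays overlapped. Recovery minus heat shock was 0.70 ± 0.09, or 1.63-fold, with scrambled siRNA and 0.62 ± 0.10, or 1.53-fold, with Sat III siRNA. The other EPCAM probe, ILMN_2160209, was not well above background on any of the 22 arrays, with values of 4.41 to 5.23 and detection p-values of 0.0119 to 0.607, so it neither repeats nor contradicts the first probe. It did not pass the filter and was not tested.

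SULF1 and CSPG5 stood lower in recovery. The SULF1 probe, ILMN_1702363, was detected on all 22 arrays and was the dimmest tested member, at 72.4 to 185 units before normalisation. With scrambled siRNA SULF1 read 6.69, 6.91, 6.56 and 6.38 untreated, 6.80, 6.76, 6.65 and 6.85 after heat shock, and 5.95, 5.79, 5.51 and 5.86 in recovery. In the Sat III arm it read 6.96, 6.92 and 6.84 untreated, 6.75, 6.66 and 6.85 after heat shock, and 5.93, 5.88, 5.95 and 5.97 in recovery. All recovery arrays lay below all others of their arm, and untreated and heat-shocked arrays overlapped in both arms. The lowest signal of a detected probe lay between 5.21 and 5.62 on each array, so SULF1 in recovery was close to the detection limit. Recovery minus heat shock was -0.98 ± 0.10, or 1.98-fold lower, with scrambled siRNA and -0.82 ± 0.11, or 1.77-fold lower, with Sat III siRNA.

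CSPG5 was the only tested member whose treatment groups followed one descending order without overlap in both arms. Its probe, ILMN_1688184, was detected on all 22 arrays. With scrambled siRNA CSPG5 read 8.99, 8.95, 8.87 and 8.80 untreated, 8.58, 8.79, 8.77 and 8.72 after heat shock, and 8.29, 8.06, 8.06 and 7.93 in recovery. With Sat III siRNA it read 8.73, 8.65 and 8.64 untreated, 8.49, 8.47 and 8.39 after heat shock, and 7.71, 7.66, 7.90 and 7.62 in recovery. The closest groups were the scrambled untreated and heat-shocked ones, whose nearest arrays read 8.80 and 8.79. Heat shock minus untreated was -0.19 ± 0.08 with scrambled siRNA and -0.22 ± 0.09 with Sat III siRNA. Recovery minus heat shock was -0.63 ± 0.08, or 1.55-fold lower, and -0.73 ± 0.09, or 1.65-fold lower. With scrambled siRNA the latter was -0.51 ± 0.11 in replicates 1 and 2 alone and -0.75 ± 0.12 in replicates 3 and 4 alone.

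**Figure D1:**
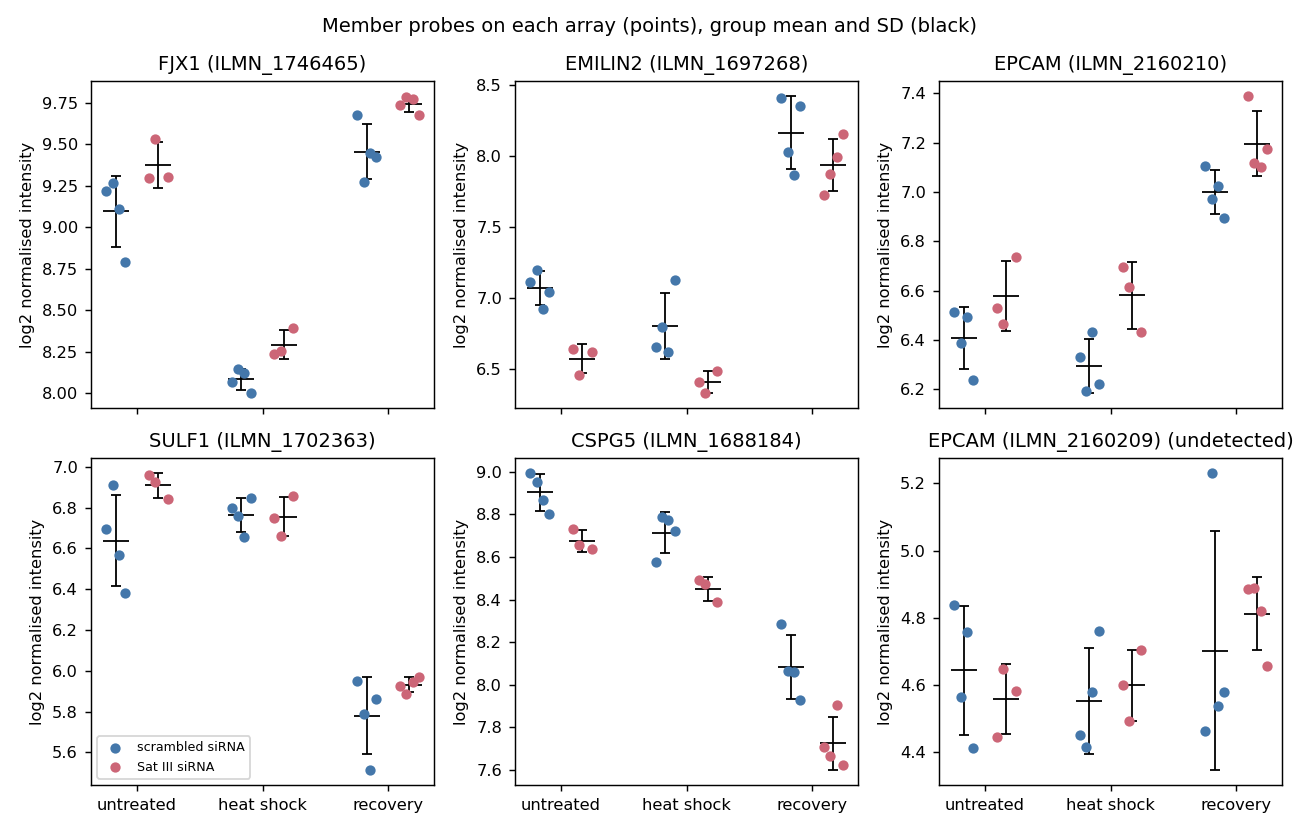
Log2 normalised intensity (vertical axis) of the 6 member probes on each array, by treatment (horizontal axis) and siRNA arm (colour), with group means and SD in black. Vertical scales differ between panels. FJX1 dips at heat shock, EMILIN2 and EPCAM are high in recovery only, SULF1 and CSPG5 are low in recovery, and the EPCAM probe ILMN_2160209 stays undetected at 4.41 to 5.23.

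Recovery minus heat shock did not overlap for 5 of 5 tested members in either arm, and nothing is read from this because it chose them. Over all 10147 tested genes, 21.7% were called in that comparison with scrambled siRNA (limma, adjusted p under 0.05) and 21.5% with Sat III siRNA. These are shares of calls, and the share of all genes without overlap is not given. The plot of changes by arm shows the same sign in both arms for each member between heat shock and recovery and between untreated cells and recovery. On the 15 matching arrays, recovery minus heat shock with scrambled siRNA was 1.35 for FJX1, 1.41 for EMILIN2, 0.71 for EPCAM, -0.99 for SULF1 and -0.57 for CSPG5. With Sat III siRNA it was 1.52, 1.43, 0.60, -0.80 and -0.80 in the same order. The difference between arms in recovery minus heat shock was 0.08 ± 0.14 for FJX1, 0.17 ± 0.18 for EMILIN2, -0.09 ± 0.13 for EPCAM, 0.16 ± 0.14 for SULF1 and -0.10 ± 0.12 for CSPG5. In heat shock minus untreated, where the difference between arms was tested, limma called 0 of 10147 genes (0%), against 368 at an unadjusted p under 0.05, and the members' adjusted p was 0.997 each. Their 95% intervals there ran from -0.59 (SULF1, lower end) to 0.49 (EMILIN2, upper end).

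**Figure D2:**
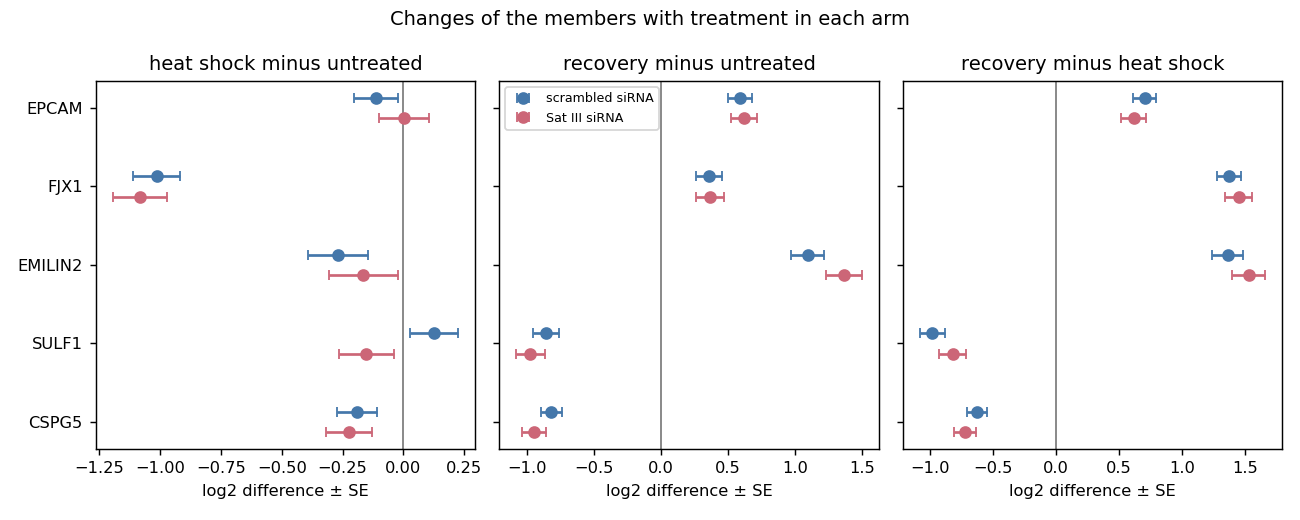
Log2 differences (horizontal axes) between treatments for the 5 tested members, with scrambled siRNA in blue and Sat III siRNA in red, and bars of 1 SE. FJX1 lies at -1.01 and -1.08 for heat shock minus untreated, and in recovery minus heat shock FJX1 and EMILIN2 lie between 1.37 and 1.53.

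The siRNA arms were then compared within each treatment, a contrast that did not choose the members. The heat-shock and recovery comparisons and the mean still use the heat-shock and recovery values that chose them. Calls there are therefore not independent of the choice, and only the comparison in untreated cells shares none of those values. In untreated cells EMILIN2 was lower with Sat III siRNA by 0.50 on the log2 scale, and in recovering cells CSPG5 was lower by 0.36. Averaged over the treatments, EPCAM and FJX1 were higher and EMILIN2 and CSPG5 lower with Sat III siRNA, by 1.16-fold to 1.29-fold.

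In untreated cells limma called 1 of 5 members, EMILIN2, at -0.50 ± 0.13 (adjusted p = 0.0248, 3 against 4 arrays, 1.41-fold lower). All 3 Sat III siRNA arrays, at 6.46 to 6.64, lay below the 4 scrambled arrays, at 6.92 to 7.20. Over all genes 6.09% were called in either direction and 3.82% as lower, so 1 of 5 stands beside a background of that size. The EMILIN2 call was lost without any of 5 arrays: scrambled untreated replicate 1 (adjusted p = 0.0530) or 2 (0.0733), or Sat III untreated replicate 1 (0.0573), 2 (0.125) or 4 (0.0619). It was also lost on the 15 matching arrays, at -0.53 (adjusted p = 0.0553), and with median scaling, at -0.56 (adjusted p = 0.364). The other members did not pass: FJX1 at 0.28 ± 0.10 (adjusted p = 0.126), SULF1 at 0.27 ± 0.11 (0.146), CSPG5 at -0.23 ± 0.09 (0.133) and EPCAM at 0.17 ± 0.10 (0.346). FJX1 and CSPG5 did not overlap between the arms here, and EPCAM and SULF1 did. No share of all genes without overlap is given, so nothing is read from overlap here or in the other treatments. Without scrambled untreated replicate 2, the highest of its group, SULF1 passed (adjusted p = 0.0393).

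At the end of heat shock limma called 0 of 5 members, against 7.03% of all genes. At an unadjusted p under 0.05 there were 3 of 5 members (19.3% of all genes), where untreated cells had 4 of 5 (19.7%) and recovering cells 3 of 5 (23.7%). EMILIN2 stood at -0.39 ± 0.13 (adjusted p = 0.0780), with the Sat III siRNA arrays at 6.33 to 6.49 below the scrambled ones at 6.62 to 7.13. CSPG5 stood at -0.26 ± 0.09 (adjusted p = 0.0729) and did not overlap either. EPCAM stood at 0.29 ± 0.10 (adjusted p = 0.0797), and its arms overlapped. With the replicate number as a block, which the labels tie to no shared origin, 2 of 5 passed, EMILIN2 at -0.44 (limma, adjusted p = 0.0230) and EPCAM at 0.30 (0.0429). FJX1 was at 0.21 ± 0.10 (adjusted p = 0.279) with no overlap. SULF1 was at -0.01 ± 0.11, with a 95% interval of -0.23 to 0.21.

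In recovering cells limma called 1 of 5 members, CSPG5, at -0.36 ± 0.08 (adjusted p = 0.00499, 4 against 4 arrays, 1.28-fold lower). The 4 Sat III siRNA arrays, at 7.62 to 7.90, lay just below the 4 scrambled arrays, at 7.93 to 8.29. The background was 10.5% of genes in either direction and 6.92% as lower. Without each of the 22 arrays in turn the adjusted p stayed between 0.0019 and 0.0246, and on the 15 matching arrays it was 0.0150. The call was lost with median scaling, at -0.40 (adjusted p = 0.585), and in replicates 3 and 4 alone, at -0.23 (adjusted p = 0.407). FJX1 was at 0.29 ± 0.10 (adjusted p = 0.0601), and it passed without scrambled recovery replicate 1 (0.0227) or scrambled untreated replicate 2 (0.0485) or 4 (0.0260), with no background correction (0.0406) and with replicates 1 and 2 against 3 and 4 as a block (0.0469). EMILIN2 was at -0.23 ± 0.12 (adjusted p = 0.272), EPCAM at 0.20 ± 0.09 (0.179) and SULF1 at 0.15 ± 0.10 (0.371), and the arms overlapped for all 3.

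The arm difference averaged over the 3 treatments was added after the data had been seen. By limma 4 of 5 members passed, where 26.1% of all genes did. EMILIN2 was at -0.37 ± 0.07 (adjusted p = 0.000698) and CSPG5 at -0.28 ± 0.05 (0.000156). FJX1 was at 0.26 ± 0.06 (adjusted p = 0.00222) and EPCAM at 0.22 ± 0.05 (0.0048). SULF1 was at 0.14 ± 0.06 (adjusted p = 0.0927), and passed only without scrambled untreated replicate 2 (0.0243). The same 4 members passed on the 15 matching arrays. With median scaling EMILIN2 alone passed, and in replicates 3 and 4 alone, where 2 of the Sat III siRNA groups hold 1 array, none did, with all 5 signs kept in both settings.

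**Figure D3:**
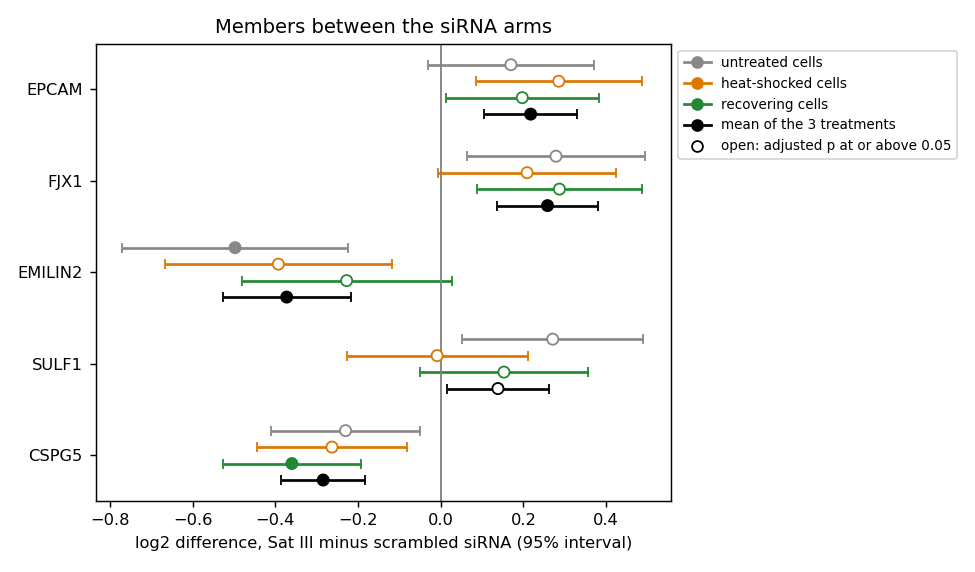
Log2 difference, Sat III minus scrambled siRNA (horizontal axis), with 95% intervals for each tested member in untreated, heat-shocked and recovering cells and for the mean of the 3 treatments. Filled points passed at an adjusted p under 0.05: EMILIN2 in untreated cells, CSPG5 in recovering cells, and 4 of 5 members in the mean.

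Genes of the pathways around the members were taken from 5 lists of 156 genes, of which 105 passed the filter and were tested, with the members left out. In recovery against heat shock, 25 of the 105 changed with scrambled siRNA, 22 higher and 3 lower (23.8%, against 21.7% of all genes, and 12.2% of all genes as higher). With Sat III siRNA 19 changed, 17 higher and 2 lower (18.1%, against 21.5% of all genes, and 11.8% as higher). The median difference of the listed genes was 0.14 in each arm, against -0.0033 and -0.0032 for all genes. The lists were chosen with earlier results of these data known. Nothing is therefore read from that median or from the split of higher and lower. In both arms 12 genes passed with the same sign, which is 48% of the scrambled calls and 63.2% of the Sat III calls, and 0 passed with opposite signs. These counts rest on the scaling: with median scaling 5 listed genes passed with scrambled siRNA, 5 higher and 0 lower (CHST15, CHPF2, ERBB3, JUP and VANGL1), and 3 with Sat III siRNA, 3 higher and 0 lower (CHPF2, ERBB3 and JUP). Every other call between treatments named below was lost in that setting. Over all genes the calls then fell from 2202 to 457 and from 2182 to 414, and the share of higher among them moved from 56.1% to 67.0% with scrambled siRNA.

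Genes of heparan sulfate, the substrate of SULF1, counted 7 higher and 0 lower of 24 tested with scrambled siRNA, with a median of 0.22. SDC1, a syndecan that carries such chains, rose by 0.55 ± 0.10 (limma, adjusted p = 0.000231). EXT1, which extends the chains, rose by 0.54 ± 0.10, and B3GALT6, which builds their linker, by 0.51 ± 0.09. With Sat III siRNA 5 of 24 rose and 0 fell, led by HS3ST3A1, a sulfotransferase, at 0.49 ± 0.11, EXT1 at 0.47 ± 0.11 and XYLT2, which starts the linker, at 0.37 ± 0.10. The XYLT2 call was lost without Sat III heat shock replicate 2 (adjusted p = 0.0671). SULF2, the other sulfatase of the SULF1 family, did not pass, at -0.17 ± 0.10 (adjusted p = 0.246) and -0.19 ± 0.11 (0.226), and it is named for that relation after its values had been seen.

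Genes of chondroitin sulfate and the ERBB receptors, around CSPG5, counted 7 higher and 1 lower of 19 with scrambled siRNA and 6 higher and 0 lower with Sat III siRNA. CHST15, a sulfotransferase of these chains, rose by 0.88 ± 0.10 (limma, adjusted p = 8.61e-07) with scrambled and by 0.62 ± 0.11 with Sat III siRNA. CHPF2, a chain-extending factor, rose by 0.55 ± 0.12 and 0.88 ± 0.13. ERBB3, a receptor tyrosine kinase, rose by 0.63 ± 0.15 and 0.82 ± 0.16, but it was not well above background after heat shock in either arm, so its folds are at least 1.02 and at least 1.06.

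Elastic fibre and secreted matrix genes, the group around EMILIN2, counted 2 higher and 0 lower of 26 with scrambled siRNA and 3 higher and 0 lower with Sat III siRNA. LAMA5, a laminin chain, rose by 0.44 ± 0.12 (limma, adjusted p = 0.00918) and COL6A1, a collagen chain, by 0.35 ± 0.12 (0.0472) with scrambled siRNA. With Sat III siRNA LTBP3, which binds latent TGF-beta, rose by 0.58 ± 0.12, LAMB1, another laminin chain, by 0.54 ± 0.11, and EMILIN3, of the EMILIN family, by 0.47 ± 0.16 (adjusted p = 0.0383). The COL6A1 call was lost without any of 15 arrays (adjusted p up to 0.179, without scrambled recovery replicate 1) and the EMILIN3 call without any of 5 (up to 0.256, without Sat III heat shock replicate 1).

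Fat, Dachsous and planar polarity genes, around FJX1, counted 3 higher and 0 lower of 15 with scrambled siRNA and 2 higher and 2 lower with Sat III siRNA. VANGL1, a polarity protein of the membrane, rose by 0.62 ± 0.17 (limma, adjusted p = 0.0120) with scrambled siRNA from a level not well above background, and its bound gives no fold. PRICKLE1, a cytoplasmic polarity protein, rose by 0.33 ± 0.10 in each arm, and PRICKLE2, of its family, by 0.30 ± 0.11 with scrambled siRNA (adjusted p = 0.0487). With Sat III siRNA LATS2, a Hippo pathway kinase, fell by 0.45 ± 0.14 and CELSR1, a cadherin of polarity, fell by 0.28 ± 0.08. All of these but VANGL1 lost their call without single arrays: PRICKLE1 without 1 (scrambled recovery replicate 4, adjusted p = 0.0624) and 4 arrays (up to 0.210), PRICKLE2 without 14 (up to 0.143), LATS2 without 3 (up to 0.0736) and CELSR1 without 2 (up to 0.0885). The LATS2 mean in Sat III siRNA recovery, 5.23, lay below the lowest detected signal of each array (5.31 to 5.60). The size of its fall therefore rests on values at the detection limit.

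EPCAM partners and junction genes counted 3 higher and 2 lower of 21 with scrambled siRNA and 1 higher and 0 lower with Sat III siRNA. JUP, or plakoglobin, which links cadherins to the cytoskeleton, rose by 0.61 ± 0.11 (limma, adjusted p = 0.000229) and by 0.67 ± 0.11 (0.000195). DSC2, a desmosomal cadherin, rose by 0.42 ± 0.10 with scrambled siRNA. FHL2, which binds the EPCAM tail, fell by 0.37 ± 0.08 with scrambled siRNA (adjusted p = 0.00153).

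**Figure D4:**
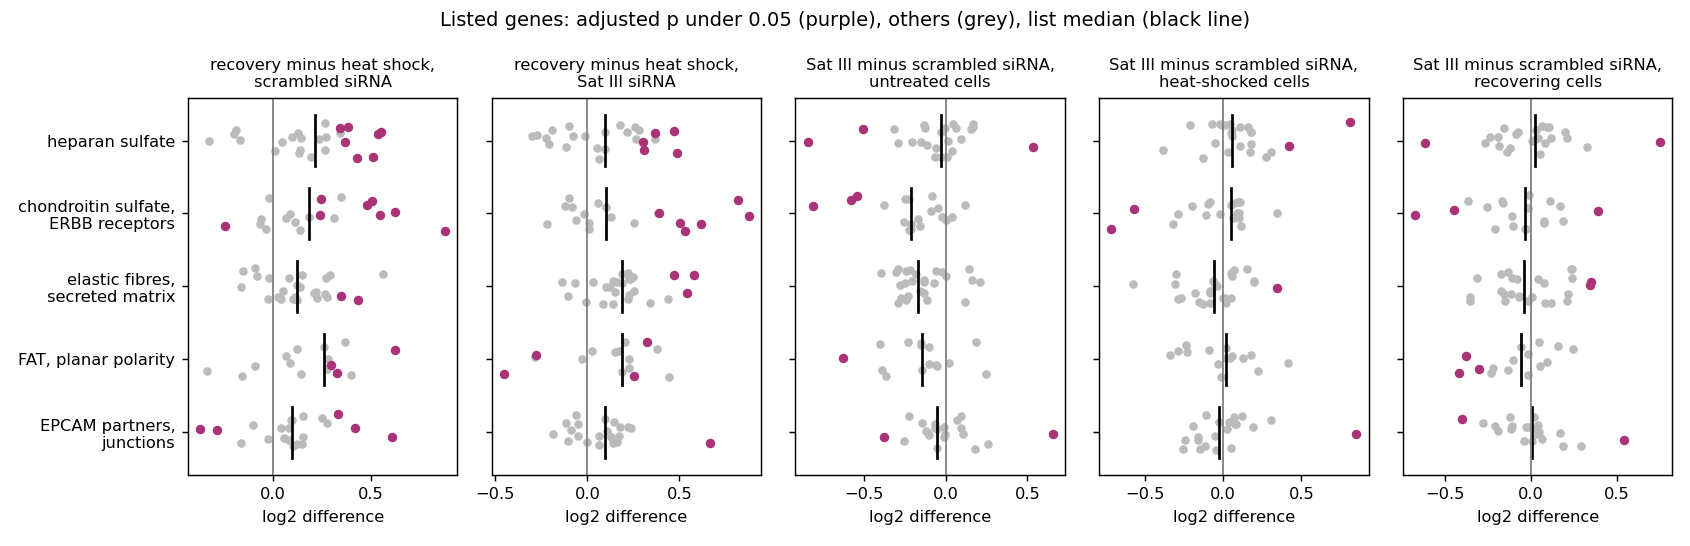
Log2 differences (horizontal axes) of the 105 tested listed genes in 5 comparisons, by list (vertical axis), with genes at an adjusted p under 0.05 in purple, others in grey and the list median as a black line. In recovery minus heat shock most called genes lie above 0, 22 of 25 and 17 of 19, while between the arms they lie on both sides. The lists were chosen with earlier results of these data known.

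Between the siRNA arms 9 of 105 listed genes differed in untreated cells (8.57%, against 6.09% of all genes), 6 at the end of heat shock (5.71%, against 7.03%) and 12 in recovery (11.4%, against 10.5%). These shares lie near the background. GLCE, DSC2, EGFR and UST passed in all 3 treatments, each in 1 direction. GLCE, the epimerase of heparan sulfate, was higher with Sat III siRNA by 0.53 ± 0.09, 0.81 ± 0.09 and 0.75 ± 0.09 in untreated, heat-shocked and recovering cells (limma, adjusted p = 0.00103, 4.48e-06 and 3.63e-06). DSC2 was higher by 0.65 ± 0.11, 0.85 ± 0.11 and 0.54 ± 0.10. EGFR, the receptor of epidermal growth factor, was at -0.82 ± 0.14, -0.72 ± 0.14 and -0.67 ± 0.13. On heat-shocked Sat III siRNA arrays EGFR was not well above background, where it was at least 1.52-fold lower. In untreated Sat III siRNA cells the EGFR mean, 5.31, also lay below the lowest detected signal of each array (5.42 to 5.48). The size of that difference, -0.82, therefore rests on values at the detection limit. UST, a sulfotransferase of chondroitin and dermatan sulfate, was at -0.54 ± 0.09, -0.57 ± 0.09 and -0.45 ± 0.08. These 4 genes kept each of their 12 calls without any 1 array, and all 12 signs in every alternative run. With median scaling 7 of the 12 calls were lost, including all 3 of UST, and GLCE stayed called after heat shock and in recovery, DSC2 after heat shock, and EGFR in untreated and recovering cells. In replicates 3 and 4 alone 10 were lost, in replicates 1 and 2 alone 3, with the authors' values as labelled 8, and on the 15 matching arrays 1 (DSC2 in recovery).

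The remaining calls between the arms were spread over the lists. In untreated cells the syndecan SDC4 was at -0.84 ± 0.16 (limma, adjusted p = 0.00219), and it passed again in recovery at -0.62 ± 0.15 (0.00964). PSEN2, a presenilin, was at -0.38 ± 0.11 untreated (adjusted p = 0.0339, lost without any of 5 arrays, up to 0.160) and at -0.40 ± 0.10 in recovery (0.00936). EXTL3, CHST3 and CELSR2, at -0.51, -0.58 and -0.63, passed in untreated cells and lost their call without 4, 3 and 15 arrays (adjusted p up to 0.131, 0.160 and 0.177). B3GALT6 at 0.42 and LAMC1, a laminin chain, at 0.34 passed after heat shock and lost it without 2 and 15 arrays (up to 0.0646 and 0.211). In recovery CHPF2 (0.39), LAMB1 (0.35) and LAMC1 (0.34) were higher, and CELSR3 (-0.42), PRICKLE2 (-0.38) and DVL3 (-0.30) lower, and each lost its call without 3 to 7 arrays, with an adjusted p of at most 0.108. The count of 9 in untreated cells was 5 without scrambled untreated replicate 2, and the count of 12 in recovery was 7 without scrambled recovery replicate 4.

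The genes whose values followed each member most closely over the 22 arrays are given as a description, since the arrays share the treatments and the correlations rest on these. FJX1 went with SNORA33, a small nucleolar RNA (Pearson's r = 0.97), DOLK, dolichol kinase (0.95), and RSRP1 (0.95). SNORA33 had mean levels of 7.15 untreated, 6.34 after heat shock and 7.44 in recovery, the same dip as FJX1. EMILIN2 went with MED22, a Mediator subunit (0.95), SLC8B1, a mitochondrial sodium and calcium exchanger (0.95), and RHBDF1, an inactive rhomboid protein (0.94). EPCAM went with SLC49A4, a transporter family member (0.94), ABCA1, a cholesterol exporter (0.93), and CAP2, an actin-binding protein (0.92). SULF1 went with SAFB2, of the scaffold attachment factors (0.94), RARA, a retinoic acid receptor (0.92), and SQLE, squalene epoxidase (0.90). CSPG5 went with STK39, a kinase (0.92), TCFL5, a transcription factor (0.91), and GALNT18, of a glycosyltransferase family (0.91).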

How the data were processed

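RNA of 22 HEK293T samples was measured on Illumina bead arrays, from 300 ng of RNA labelled with biotin, per the labels' protocols. The authors deposited a scanner table with a linear intensity for each probe and array, not background-subtracted or normalised as judged from its values. Detection p-values, which set each probe against negative control beads, stand beside it per the file headers. The authors' table of normalised intensity was an alternative, and how it was normalised is not stated. The number of arrays limits the precision.

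Normalisation of the scanner table used the neqc function of limma (3.58.1, R 4.3.3; background from the detection p-values, offset 16, quantile normalisation, log2). Probes with a detection p-value under 0.01 on at least 3 arrays were kept (15324), and each gene was taken as its brightest probe (10147 genes). Of all probes, 28098 had 1 symbol in the platform annotation, and 28059 of these were updated through RefSeq. One fit of 6 group means gave moderated tests with Benjamini-Hochberg adjustment over all genes, called at an adjusted p under 0.05. A gene undetected on every array of a group has only a bound there. Its fold is the brighter group's mean against, per dim array, the higher of its own value and the lowest detected signal. On simulated data for the comparison in untreated cells over 10147 genes, 16% of changes of 0.25, 64% of changes of 0.5 and 98% of changes of 1 (log2) were called. There 9 unchanged genes were also called, 6.08% of the calls. The simulated noise was independent between arrays, unlike the real arrays, so these shares may not hold for the real data.

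The members and the gene lists were chosen with earlier results of these data known. Named are the members, from each list and comparison the 3 called genes with the largest difference, and the 3 genes most correlated with each member. Replicate numbers were not taken to pair samples, since the labels give them no shared origin. Same-numbered arrays still deviated together more often, with a correlation over 0.1 in 32 of 51 pairs against 27 of 150 others. The main tests do not model such shared variation, and blocks by number are given as an alternative. Alternatives covered the scaling, background, filter, probe choice, blocks, the authors' values and leaving out arrays.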

Additional observations from a re-analysis of the deposited data

Results flagged for a closer look

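EPCAM probe ILMN_2160209 read 5.23 on scrambled siRNA, recovery, replicate 2, far from the other 3 arrays of its group, at 4.46 to 4.58. It was 1 of 24 groups of 4 member values so marked, where chance marks about 1 in 20, and the probe was not well above background there. SULF1 after heat shock differed in sign between the arms. The 4 scrambled arrays lay 0.017 to 0.21 above their untreated mean and the 3 Sat III siRNA arrays 0.053 to 0.25 below theirs. Heat shock minus untreated was 0.13 (95% interval -0.08 to 0.33) with scrambled and -0.15 (-0.39 to 0.08) with Sat III siRNA. Both intervals include no change, and the untreated and heat-shocked arrays overlapped. The difference between arms was -0.28 ± 0.15 and did not pass (limma, adjusted p = 0.997).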

How the results depend on the processing

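Of the members' arm differences under the processing alternatives, 228 kept their direction and side of the threshold, 21 lost a call, 4 gained one and 2 changed sign. These alternatives include the authors' values as labelled, where 7 of 22 columns do not match the scanner array of their label. With 1 array left out, 427 kept both, 5 lost a call, 5 gained one and 3 changed sign. SULF1 after heat shock, near 0, changed sign to 0.105 in replicates 3 and 4 alone and to 0.0758 with the authors' values as labelled, and ranged from -0.0585 to 0.0381 with 1 array left out.

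Median scaling left 5 and 3 listed genes called in recovery minus heat shock (scrambled, Sat III siRNA) and 1, 2 and 2 between the arms (untreated, heat shock, recovery), and 0 members in untreated cells, 0 in recovery and 1 in the mean. Replicates 1 and 2 alone gave 12 and 11 listed genes between treatments, 3 between the arms after heat shock and 3 in recovery, and 2 members in the mean. Replicates 3 and 4 alone gave 5 and 4 listed genes between treatments, 0, 0 and 2 between the arms, and 0 members in untreated cells, recovery and the mean. There the Sat III siRNA untreated and heat-shock groups hold 1 array, assumed to vary like the others. The authors' values as labelled gave 0 and 0 listed genes between treatments, 0, 2 and 2 between the arms, and 0 members in untreated cells, recovery and the mean. On the matching arrays they gave 12 listed genes in the Sat III siRNA recovery comparison, 6 between the arms in recovery and 0 members in untreated cells, and the scanner values gave 11, 3 and 0. Only the 2 groups compared gave 4 listed genes between the untreated arms. Called members in recovery were 2, CSPG5 and FJX1, with no background correction and 2, the same, with replicates 1 and 2 against 3 and 4 as a block. With the replicate number as a block, 2 members passed after heat shock, EMILIN2 at -0.44 (limma, adjusted p = 0.0230) and EPCAM at 0.30 (0.0429), and 14 of 22 arrays correlated best with their own number. Of 51 same-numbered pairs of arrays, 32 deviated together (correlation over 0.1, mean 0.14, from -0.16 to 0.33), against 27 of 150 pairs with different numbers (mean -0.046), which is a hint from the data that numbers go with shared variation. The labels give the number no shared origin.

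With 1 array left out, listed genes called ranged from 17 to 31 and 13 to 22 between treatments, and from 5 to 10, 4 to 7 and 7 to 13 between the arms. Called members ranged from 0 to 1 in untreated cells, 0 to 0 after heat shock, 1 to 2 in recovery and 4 to 5 in the mean. Over all genes the main counts were 2202 and 2182 between treatments and 618, 713 and 1067 between the arms. They were 457, 414, 44, 68 and 114 with median scaling, and 1020, 1122, 193, 250 and 293 in replicates 1 and 2. In replicates 3 and 4, where 2 groups hold 1 array, fewer genes passed. Blocks raised the counts, to 2553, 2439, 784, 843 and 1328 with the replicate number as a block. With replicates 1 and 2 against 3 and 4 as a block they were 2492, 2449, 809, 852 and 1305. The authors' values as labelled, with 7 of 22 columns that do not match the scanner array of their label, gave 0, 0, 0, 65 and 152. On the 15 matching arrays the authors' values gave 1786, 1294, 393, 474 and 652, and the scanner values 1674, 1213, 323, 431 and 563. The 2 groups alone gave 309 (untreated arms) and 710 (recovering arms). Median scaling moved the share of higher among called genes from 56.1% to 67.0% in recovery minus heat shock with scrambled siRNA, and between the arms from 37.2% to 6.82%, 33.4% to 14.7% and 34.2% to 4.39%. The causes of these changes were not tested. Some settings hold fewer arrays, and the authors' values as labelled hold the columns that do not match. The chip as a block was not run, since the headers give no chip. Signal limits the undetected EPCAM probe and SULF1 in recovery, close to the detection limit.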
